A study of Mus musculus with 6 samples.

Results

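The 9 genes described here belong to the machinery by which mammalian cells detect double-stranded RNA and answer type I interferon. They are Ddx58, Ifih1, Tlr3, Eif2ak2, Stat2, Irf9, Mx2, Isg15 and Lgals3bp, taken by gene symbol from a table of 24318 genes, and all 9 symbols have a row. They were read as a check of an innate response in cells given an siRNA, which is itself a short double-stranded RNA. The groups are 3 libraries of CAD cells given an siRNA against circGigyf2 (labelled siCircGigyf2 here) and 3 libraries of CAD cells given a control siRNA (siNC). CAD is a mouse catecholaminergic neuronal line, a variant of the tumour-derived Cath.a line, and circGigyf2 is a circular RNA back-spliced from exons of Gigyf2. The libraries were made from total RNA depleted of ribosomal RNA, in a series on circular RNAs in Alzheimer disease. Both groups carry an siRNA and untreated cells were not analysed here, so a response shared by both siRNAs cannot be told apart from the resting state of the line. No siRNA sequence, dose or time was found in the sources.

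Cells sense double-stranded RNA through several routes. RIG-I (Ddx58) and MDA5 (Ifih1) are cytosolic helicases that signal through the adaptor MAVS, TLR3 is an endosomal receptor that signals through TRIF, and the kinase PKR (Eif2ak2) phosphorylates eIF2α and lowers translation. The first routes lead to secretion of type I interferon, whose receptor activates STAT2 among other factors. STAT2 joins IRF9 in the factor ISGF3, which binds interferon-stimulated response elements (ISREs) in the promoters of interferon-stimulated genes. Such genes include Mx2, Isg15 and several of the sensors themselves, so that the sensors are also outputs of the pathway.

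Promoters of several of the genes carry the core letters of the element through which ISGF3 acts, and the stretches that hold them are shown. RefSeq promoters (build GRCm38.p6, 250 bases before to 50 bases after the start) were found for 8 of the 9 genes, and for Irf9 there were 2. They were searched on both strands for the ISRE core, GAAA followed by any 2 bases and GAAA again. The core was found in the promoters of 5 genes, against 3.99% of the 27025 genes with a promoter of the same length (3.44% of 32851 promoters), with the matched bases in capitals and each sequence on the strand of its gene.
Eif2ak2: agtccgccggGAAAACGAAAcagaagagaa
Stat2: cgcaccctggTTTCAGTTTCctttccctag
Ifih1: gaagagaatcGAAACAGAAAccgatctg
Ddx58: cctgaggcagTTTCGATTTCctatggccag
Isg15: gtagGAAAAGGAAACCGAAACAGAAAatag
The stretches lie at chr17:78882535-78882564 (minus strand) for Eif2ak2, chr10:128270266-128270295 (plus strand) for Stat2, chr2:62646206-62646233 (minus strand) for Ifih1, chr4:40239804-40239833 (minus strand) for Ddx58 and chr4:156200871-156200900 (minus strand) for Isg15. Isg15 held 3 overlapping matches, the first beginning at position -78 from the transcription start. The match of Stat2 began at -222, and those of Ddx58, Eif2ak2 and Ifih1 began just after the start, at positions 3, 19 and 33. Those of Stat2 and Ddx58 read as the complement on the strand of the gene. The promoters of Irf9, Lgals3bp and Tlr3 held no match in this window, and Mx2 was not among the promoters. A match describes letters in this window and does not show a bound site.

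The estimated depth of every siCircGigyf2 library lay below that of every siNC library. The smallest steps between low FPKM values (fragments per kilobase of transcript, scaled to the library's fragments) placed the siCircGigyf2 libraries at 0.839, 0.913 and 0.802 of the depth of siNC replicate 1. On the same scale siNC replicate 2 stood at 0.979 and siNC replicate 3 at 0.953. The 11420 genes that averaged 1 FPKM or more were tested with limma on log2(FPKM + 1), and p-values were adjusted by Benjamini-Hochberg over all of them. Of these genes, 38.2% passed an adjusted p of 0.05 and 51.0% had groups that did not overlap, so a change is common in this comparison. Gigyf2, the host gene, had 21.8, 21.1 and 21.3 FPKM in the siCircGigyf2 libraries and 23.2, 23.1 and 23.2 FPKM in the siNC libraries (log2 difference -0.11, limma adjusted p = 0.0287). That call was lost, at adjusted p from 0.0655 to 0.0845, without siCircGigyf2 replicate 2 or 3 or any single siNC library. It was also lost with a block on the replicate number (0.0598). The row pools linear and circular molecules, so it does not check the knockdown of the circle. Of 10 markers of CAD identity 9 passed the filter, but the catecholamine enzyme genes were low, with Th at 2.82 to 3.77 FPKM and Ddc at 0.235 to 0.431 FPKM in the siCircGigyf2 libraries, and at 3.53 to 4.85 and 0.276 to 0.493 FPKM in the siNC libraries. Of the 9 tested identity markers 3 were higher and 3 lower by limma, all named after their values were seen. Gap43, Tubb3 and Hand2 rose by 0.59, 0.55 and 0.18 on the log2 scale and passed under all 15 alternatives. Chga (-0.12), Phox2a (-0.20) and Dbh (-0.37) were lower, each with a call lost under several alternatives (highest adjusted p 0.0964, 0.0774 and 0.141). In each case these included leaving out siCircGigyf2 replicate 1 (0.0637, 0.0750 and 0.0821) or siNC replicate 2 (0.0700, 0.0774 and 0.141). For Chga and Dbh the call was also lost without siCircGigyf2 replicate 3 (0.0824 and 0.126), for Chga and Phox2a without siNC replicate 3 (0.0964 and 0.0650), for Phox2a without siCircGigyf2 replicate 2 (0.0695) and for Dbh without siNC replicate 1 (0.107). On the log2(FPKM + 1) scale the rises of Gap43 and Tubb3 were larger than those of the 6 tested genes of the 9. That scale understates changes of low genes. As ratios of mean FPKM, siCircGigyf2 over siNC, Irf9 (1.59) and Mx2 (1.55) stood above Gap43 (1.51) and Tubb3 (1.47). The part of the identity markers in the results was not tested.

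Of 9 microglia and macrophage markers 0 reached the filter. Their summed FPKM was 0.765 to 1.14 in the siCircGigyf2 libraries and 0.680 to 1.03 in the siNC libraries, and Ptprc, Itgam, C1qa and C1qb were listed at 0 in all 6. Summed FPKM of the fibroblast, endothelial, astrocyte and oligodendrocyte markers overlapped between the groups. Of 6 fibroblast markers 2 were tested, and 1 of these, Col1a1, a collagen gene named after its values were seen, had 1.67, 1.45 and 1.28 FPKM in the siCircGigyf2 libraries and 1.01, 0.791 and 0.976 FPKM in the siNC libraries. Its siNC mean lay below 1 FPKM, so it was tested by virtue of the siCircGigyf2 libraries. Its log2 rise was 0.36 (limma adjusted p = 0.0180), or 0.61 with a pseudocount of 0.1. The call was lost without siCircGigyf2 replicate 1 (0.0590) or siNC replicate 2 (0.0602), and the part of Col1a1 in the results was not tested. Pdgfra, the other tested marker, had 1.77, 1.81 and 1.90 FPKM in the siCircGigyf2 libraries and 2.04, 1.92 and 2.12 FPKM in the siNC libraries. It did not pass (log2 difference -0.10, adjusted p = 0.316). Dcn was under the filter, and Col1a2, Col3a1 and Lum were at 0 throughout. These were also chosen with values known.

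Of the 9 genes, 6 passed the filter on low values, and 4 of these were higher in the siCircGigyf2 libraries, where 19.5% of all genes tested were. They were Mx2, Irf9, Lgals3bp and Eif2ak2, with mean FPKM between 1.24 and 1.59 times that of siNC. The groups of these 4 genes did not overlap, as was so in the same direction for 25.7% of all genes tested. The count of lower genes was 0 by limma, where 18.7% of all genes tested were lower, and also 0 at an unadjusted p under 0.05. Stat2 and Ddx58 did not pass the test, Tlr3 and Isg15 lay under the filter, and Ifih1 was listed at 0 throughout. The median log2 difference of the 6 tested genes was 0.29, against 0.00035 over all genes tested. The 9 genes were chosen with earlier results of these data known, so these contrasts with all genes are a description. In bulk RNA, more RNA per cell and more cells with the RNA cannot be told apart.

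**Figure D1:**
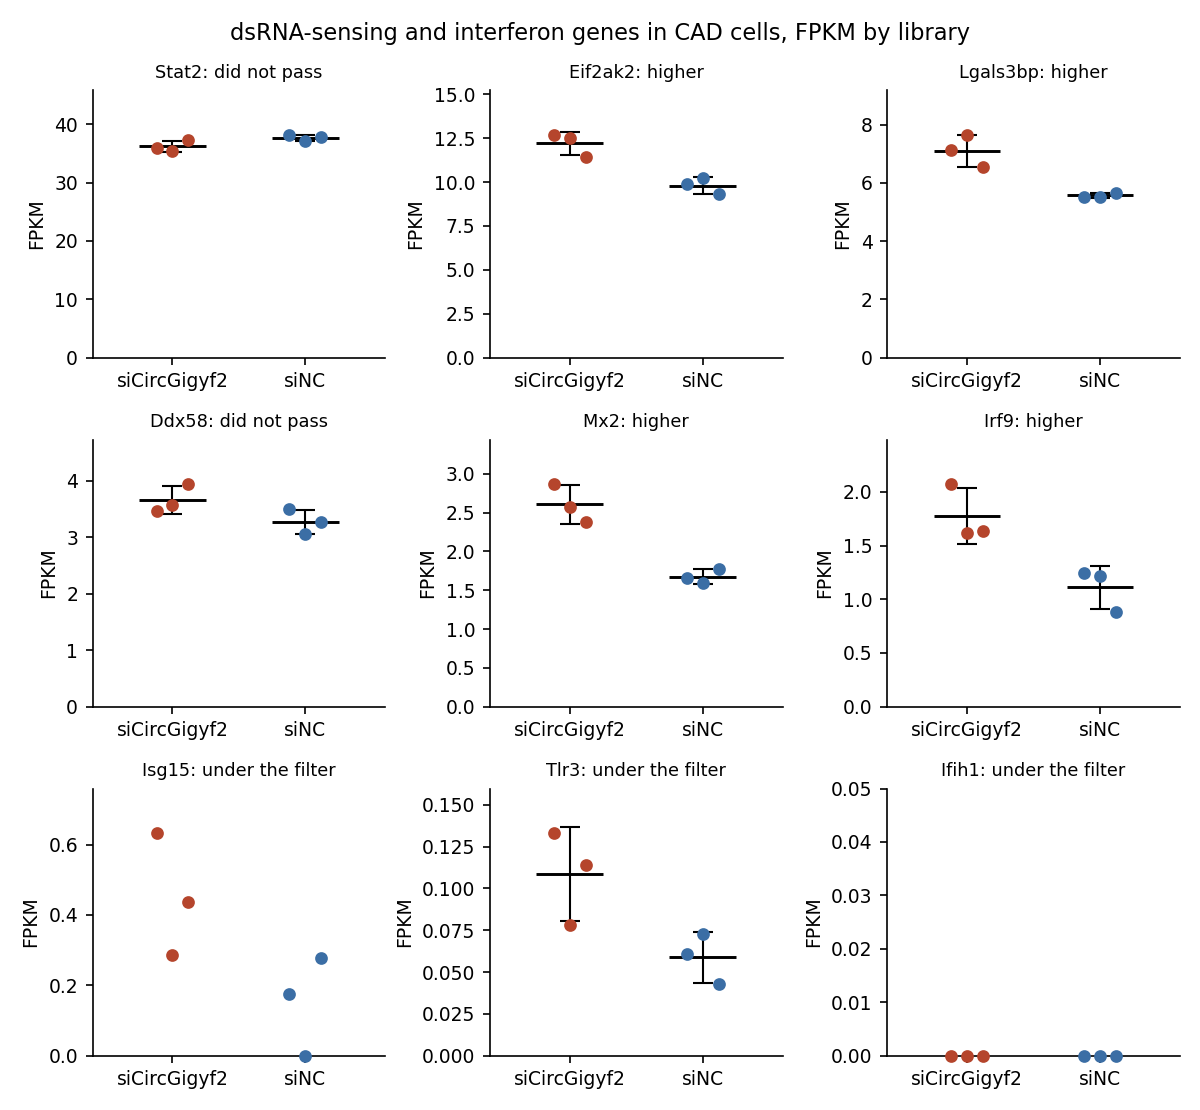
FPKM of each gene (vertical axes, linear and scaled to each gene) in the 3 siCircGigyf2 and 3 siNC libraries. Points are libraries, and long lines with bars are mean ± SD, left out where a library is listed at 0. The groups of Eif2ak2, Lgals3bp, Mx2 and Irf9 lie apart, those of Ddx58 and Stat2 overlap, and Isg15, Tlr3 and Ifih1 lie below 0.65 FPKM in all 6 libraries.

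The levels, which are per length and so can be compared between genes, span a wide range. Stat2 was the most abundant, followed by Eif2ak2, Lgals3bp, Ddx58, Mx2, Irf9, Isg15 and Tlr3, with Ifih1 at 0. The ranges over all 6 libraries did not overlap between neighbours in this order, except for Mx2 with Irf9 and for Isg15 with Tlr3. Mx2 was nevertheless above Irf9 in 6 of 6 libraries, and Isg15 above Tlr3 in 5 of 6.

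Of the 4 sensors among the 9 genes, Eif2ak2 had the highest level. Its FPKM was 12.7, 12.5 and 11.4 in the siCircGigyf2 libraries and 9.86, 10.2 and 9.30 in the siNC libraries. All 3 siCircGigyf2 libraries stood above all 3 siNC libraries. The siCircGigyf2 mean of 12.2 ± 0.676 FPKM was 1.24 times the siNC mean of 9.80 ± 0.468 FPKM (SD, n = 3 each). The log2 rise of 0.29 passed the test (SE 0.055, limma adjusted p = 0.00324). It passed under all 15 alternatives run, with adjusted p between 0.00229 and 0.0148. In the GENCODE M21 annotation 174 exon bases of Eif2ak2 are shared with Gm26637 on the opposite strand, a gene with no row in the table, and the handling of strand was not given.

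Ddx58, the gene of RIG-I, did not pass the test. Its FPKM was 3.47, 3.58 and 3.94 in the siCircGigyf2 libraries and 3.49, 3.06 and 3.26 in the siNC libraries. The groups overlapped, since the highest siNC library stood above the lowest siCircGigyf2 library. The means were 3.66 ± 0.249 FPKM in siCircGigyf2 and 3.27 ± 0.216 FPKM in siNC libraries, and the log2 difference was 0.13 (SE 0.071, limma adjusted p = 0.191). It stayed positive under the 14 alternatives that gave a value, at 0.082 to 0.16, and passed under none of them.

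Tlr3, the endosomal receptor, was close to the detection limit. Its FPKM was 0.133, 0.0779 and 0.114 in the siCircGigyf2 libraries and 0.0610, 0.0728 and 0.0426 in the siNC libraries. The groups did not overlap, which held in the same direction for 5.76% of the 5710 genes that lay under the filter but were above 0 in some library. Scaled by the relative depths, these values stood in the ratio of 11, 7 and 9 fragments in the siCircGigyf2 libraries to 6, 7 and 4 fragments in the siNC libraries, to within 0.016 of whole numbers. In this smallest whole-number ratio the lowest siCircGigyf2 library and the highest siNC library stood at the same number, 7. Their FPKM thus differed by no more than their estimated depths did. The true number of fragments is not known. An exact permutation test on log2(FPKM + 1) gave p = 0.10 (two-sided, 3 against 3), the smallest it can give. In the fit without a filter the adjusted p was 0.151 by limma.

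Ifih1, the gene of MDA5, was listed at 0 in all 6 libraries. Malat1, a nuclear RNA abundant in most cells, was also listed at 0 in all 6, which leaves the meaning of a 0 here unknown, and no comparison was made. The promoter of Ifih1 held an ISRE core like those of Ddx58 and Eif2ak2, which were detected in every library.

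Of the factors that carry the interferon signal to the nucleus, Stat2 was abundant and Irf9 was low. Stat2 had 35.9, 35.5 and 37.3 FPKM in the siCircGigyf2 libraries and 38.1, 37.1 and 37.8 FPKM in the siNC libraries. The groups overlapped. The means were 36.2 ± 0.945 FPKM in siCircGigyf2 and 37.7 ± 0.538 FPKM in siNC libraries (SD, n = 3 each), and the log2 difference of -0.06 did not pass (SE 0.033, limma adjusted p = 0.212). It was negative under all 15 alternatives, at -0.076 to -0.040.

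Irf9 encodes the DNA-binding partner of STAT2. Its FPKM was 2.07, 1.62 and 1.63 in the siCircGigyf2 libraries and 1.24, 1.22 and 0.882 in the siNC libraries. All 3 siCircGigyf2 libraries stood above all 3 siNC libraries, with siCircGigyf2 replicate 1 the highest and siNC replicate 3 the lowest. The siCircGigyf2 mean of 1.77 ± 0.259 FPKM was 1.59 times the siNC mean of 1.11 ± 0.201 FPKM. On the log2 scale Irf9 rose by 0.39 (SE 0.11, limma adjusted p = 0.0176). With a pseudocount of 0.1 the rise was 0.63. The call was lost without siCircGigyf2 replicate 1 (log2 difference 0.32, limma adjusted p = 0.0597) and without siNC replicate 3 (0.31, adjusted p = 0.0594), while the other alternatives that tested it gave adjusted p from 0.0140 to 0.0426.

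The mean of Stat2 was thus 36.2 FPKM beside 1.77 FPKM for Irf9 in the siCircGigyf2 libraries, and 37.7 FPKM beside 1.11 FPKM in the siNC libraries. The tested genes whose log2(FPKM + 1) followed Stat2 most closely over the 6 libraries were Wdr45, Blzf1, Vprbp and 2310009B15Rik, with Pearson r from 0.992 to 0.999, a description over 6 points.

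Among the outputs of the pathway, Mx2 rose. It belongs to the dynamin-like Mx GTPases that restrict viruses, and RefSeq lists the mouse gene as a transcribed pseudogene. Its FPKM was 2.87, 2.57 and 2.38 in the siCircGigyf2 libraries and 1.66, 1.59 and 1.78 in the siNC libraries. The groups did not overlap. The siCircGigyf2 mean of 2.60 ± 0.247 FPKM was 1.55 times the siNC mean of 1.67 ± 0.0946 FPKM (SD, n = 3 each). On the log2 scale Mx2 rose by 0.43 (SE 0.080, limma adjusted p = 0.00302). The rise was 0.60 with a pseudocount of 0.1, and it passed under all 14 alternatives that tested it, at adjusted p from 0.00211 to 0.0130. Its paralog Mx1, named after its values were seen, can share reads with it and lay under the filter at 0.336 to 0.414 FPKM in the siCircGigyf2 libraries and 0.297 to 0.394 FPKM in the siNC libraries, which overlapped.

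Lgals3bp encodes a secreted galectin-3-binding glycoprotein that is induced by interferon and by viral infection. Its FPKM was 7.14, 7.65 and 6.54 in the siCircGigyf2 libraries and 5.53, 5.53 and 5.67 in the siNC libraries. The siNC libraries lay close together, below all 3 siCircGigyf2 libraries. The siCircGigyf2 mean of 7.11 ± 0.554 FPKM was 1.28 times the siNC mean of 5.57 ± 0.0793 FPKM. On the log2 scale Lgals3bp rose by 0.30 (SE 0.061, limma adjusted p = 0.00479). It passed under all 15 alternatives, at adjusted p from 0.00339 to 0.0182.

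Isg15 encodes a ubiquitin-like protein that is strongly induced by interferon in many cell types. Its FPKM was 0.633, 0.286 and 0.436 in the siCircGigyf2 libraries and 0.176, 0 and 0.279 in the siNC libraries. Scaled by the relative depths, these stood in the ratio of 6, 3 and 4 fragments in the siCircGigyf2 libraries to 2, 0 and 3 fragments in the siNC libraries, to within 0.039 of whole numbers. The groups did not overlap in FPKM, but they met at 3 in this smallest whole-number ratio, and the true number of fragments is not known. An exact permutation test gave p = 0.10 (two-sided, 3 against 3), the smallest it can give, and in the fit without a filter the adjusted p was 0.0905 by limma. The promoter of Isg15 held the largest number of ISRE matches of the 8 genes searched.

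**Figure D2:**
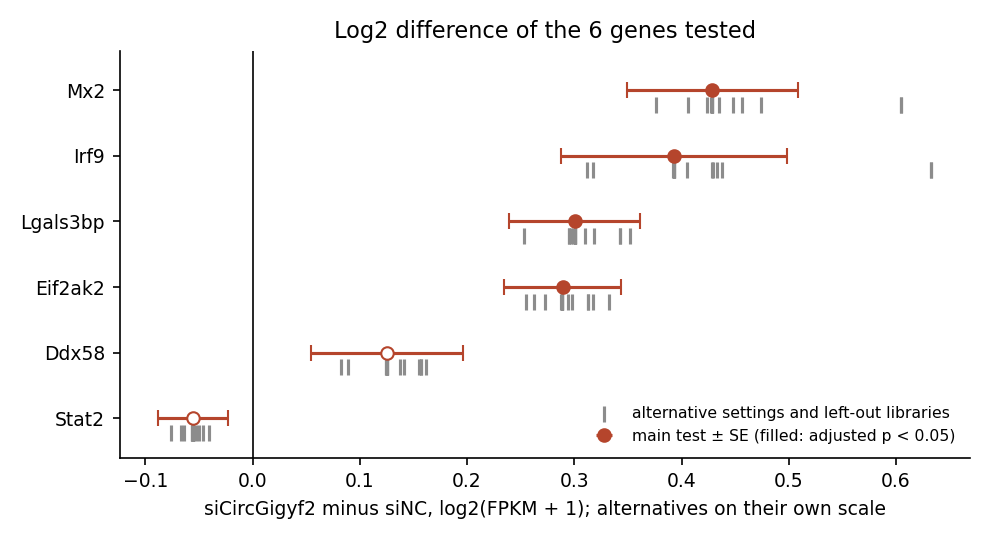
Log2 difference, siCircGigyf2 minus siNC, for the 6 genes that passed the filter (horizontal axis), with bars for the SE of the main test and grey ticks for the alternatives. Mx2, Irf9, Lgals3bp and Eif2ak2 lie at 0.29 to 0.43, Ddx58 at 0.13 and Stat2 at -0.06, and no alternative moves a gene across 0.

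The rest of the pathway was read from lists of genes by role, chosen with earlier results of these data known. Of 219 genes on these lists 118 passed the filter, of which 32 were higher and 8 lower, with a median log2 difference of 0.08. The share higher was 27.1%, where 19.5% of all genes tested were higher and 18.7% lower. Differences between the roles were not tested.

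Other sensors and effectors of double-stranded RNA lay mostly under the filter. Of 24 genes 9 passed the filter, with 2 higher and 1 lower (median log2 difference 0.07). The shares over all genes tested were 19.5% higher and 18.7% lower. The Oas1, Oas2 and Oas3 genes and Zbp1, among those under the filter, were named after their values were seen, and every gene under the filter stayed at or below 0.740 FPKM in every library. Oasl2, of the oligoadenylate synthetase family, had 1.51, 1.18 and 1.30 FPKM in the siCircGigyf2 libraries and 0.952, 0.663 and 0.771 FPKM in the siNC libraries (log2 rise 0.38, limma adjusted p = 0.0169). Its siNC mean lay below 1 FPKM, so it was tested by virtue of the siCircGigyf2 libraries, its rise was 0.68 with a pseudocount of 0.1, and the call was lost without siCircGigyf2 replicate 1 (adjusted p = 0.0562) or siNC replicate 2 (0.0567). The RNA helicase gene Ddx3x rose to 161 ± 4.29 FPKM in the siCircGigyf2 libraries, against 136 ± 1.30 FPKM in the siNC libraries (adjusted p = 0.000304). Dhx9, another RNA helicase, averaged 34.6 ± 1.57 FPKM in the siCircGigyf2 libraries, against 38.0 ± 1.39 FPKM in the siNC libraries (log2 difference -0.13, limma adjusted p = 0.0400). That call was lost without siCircGigyf2 replicate 2 (0.0842) or 3 (0.122) and without siNC replicate 2 (0.128) or 3 (0.0902). It was also lost without a filter (0.0738), with no mean-variance trend (0.0755) and with a block on the replicate number (0.0673). The gene of the dsRNA-binding protein Stau1 did not pass (log2 difference -0.03, or 0.01 without siCircGigyf2 replicate 2).

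Most genes around PKR did not pass the test. Of 11, all tested, 1 was higher and 2 were lower (median log2 difference 0.06), where 19.5% of all genes tested were higher and 18.7% lower. Eif2s1, which encodes the eIF2α subunit that PKR phosphorylates, fell to 41.9 ± 0.732 FPKM in the siCircGigyf2 libraries, against 50.5 ± 1.42 FPKM in the siNC libraries (log2 difference -0.26, limma adjusted p = 0.000379). Dnajc3, whose product P58IPK inhibits PKR, averaged 8.91 ± 0.340 FPKM in siCircGigyf2 and 10.1 ± 0.242 FPKM in siNC libraries (log2 difference -0.16, adjusted p = 0.0241). That call was lost without siCircGigyf2 replicate 3 (0.0742) and without siNC replicate 1 (0.0522), 2 (0.0505) or 3 (0.0842). It was also lost with a block on the replicate number (0.0561). Atf4, translated when eIF2α is phosphorylated, averaged 172 ± 1.79 FPKM in siCircGigyf2 and 163 ± 1.53 FPKM in siNC libraries, with a log2 rise of 0.08 (adjusted p = 0.0395). This small rise was 0.03 after quantile normalization (adjusted p = 0.378). The call was also lost with no mean-variance trend (0.106), with robust variances (0.0513) and with a block on the replicate number (0.0745). Leaving out any library lost it too (adjusted p from 0.0530 to 0.0965). The stress gene Ddit3 did not pass (log2 difference 0.16, adjusted p = 0.0783), but did without siNC replicate 3 (0.0163), and Ppp1r15b did not (0.07, adjusted p = 0.108).

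Most adaptors and kinases did not pass the test. Of 21 genes 18 passed the filter, with 3 higher and 2 lower (median log2 difference -0.0085), where 19.5% of all genes tested were higher and 18.7% lower. Tank, a scaffold of the kinase TBK1, rose to 12.6 ± 0.583 FPKM in the siCircGigyf2 libraries, against 9.57 ± 0.561 FPKM in the siNC libraries (limma adjusted p = 0.000973). Unc93b1, which escorts endosomal Toll-like receptors, TLR3 among them, averaged 13.6 ± 0.379 FPKM in siCircGigyf2 and 11.2 ± 0.452 FPKM in siNC libraries (log2 rise 0.25, adjusted p = 0.00273). Rnf125, a ubiquitin ligase that directs RIG-I to degradation, fell to 4.80 ± 0.258 FPKM in the siCircGigyf2 libraries, against 7.07 ± 0.216 FPKM in the siNC libraries (log2 difference -0.48, adjusted p = 0.000284). Fadd, a death-domain adaptor, fell to 1.83 ± 0.148 FPKM in siCircGigyf2 libraries, against 3.07 ± 0.349 FPKM in siNC libraries (adjusted p = 0.00149). Tomm70a and Azi2, whose products link MAVS and TBK1 signalling, did not pass (-0.05 and 0.02).

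Of 14 IRF and NF-κB factors 12 passed the filter, with 1 higher and 0 lower by limma, and 3 higher and 2 lower at an unadjusted p under 0.05. By adjusted p, 19.5% of all genes tested were higher and 18.7% lower. The gene that passed was Chuk, the kinase subunit IKKα (13.1, 11.98 and 13.8 FPKM in the siCircGigyf2 libraries and 10.8, 11.6 and 10.7 FPKM in the siNC libraries, log2 rise 0.21, limma adjusted p = 0.0177), a call lost without siCircGigyf2 replicate 1 (0.0531) or 3 (0.0583) and without siNC replicate 1 (0.0559) or 3 (0.0586). Nfkbia, the NF-κB inhibitor and target gene, differed by 0.04 on the log2 scale (adjusted p = 0.482). Irf2 differed by 0.12 (adjusted p = 0.0553). It passed without siCircGigyf2 replicate 2 (0.0093), with a filter of 5 FPKM (0.0474) and with a block on the replicate number (0.0473). Irf7, the interferon-induced amplifier of the response, named after its values were seen, was under the filter, at or below 0.299 FPKM in every library. Of 21 interferon ligand genes 0 passed the filter and 19 were listed at 0 in all 6 libraries. The other 2 reached at most 0.234 FPKM in a library.

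Most of the tested interferon receptor genes were higher. Of 6 genes 5 passed the filter, and 4 of these were higher and 0 lower, also at an unadjusted p under 0.05 (median log2 difference 0.23). By adjusted p, 19.5% of all genes tested were higher and 18.7% lower. The largest differences among these 5 genes were in the subunits of the interferon-γ receptor. Ifngr2 had 41.5, 42.5 and 40.1 FPKM in the siCircGigyf2 libraries and 25.1, 25.7 and 25.6 FPKM in the siNC libraries, a log2 rise of 0.68 (limma adjusted p = 7.86e-06). Ifngr1 averaged 22.1 ± 0.498 FPKM in siCircGigyf2 and 14.8 ± 0.843 FPKM in siNC libraries and rose by 0.55 (adjusted p = 5.75e-05). The type I receptor subunits rose by less. Ifnar2 averaged 29.4 ± 2.53 FPKM in siCircGigyf2 and 24.8 ± 0.869 FPKM in siNC libraries (log2 rise 0.23, adjusted p = 0.0124) and Ifnar1 13.1 ± 0.558 FPKM in siCircGigyf2 and 11.7 ± 0.421 FPKM in siNC libraries (0.15, adjusted p = 0.0323). The call of Ifnar1 was lost without a filter (0.0563), without siCircGigyf2 replicate 1 (0.0840) or 2 (0.0938) and without siNC replicate 1 (0.105) or 2 (0.0862). It was also lost with a block on the replicate number (0.0681). Il10rb, shared with the interleukin-10 receptor, did not pass (0.07).

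Among 21 JAK, STAT and feedback genes 18 passed the filter, with 2 higher and 2 lower (median log2 difference 0.04). The shares over all genes tested were 19.5% higher and 18.7% lower. Stat6, which serves interleukin-4 signalling, rose to 14.3 ± 0.399 FPKM in the siCircGigyf2 libraries, against 11.3 ± 0.633 FPKM in the siNC libraries (limma adjusted p = 0.00129). Socs2, a feedback inhibitor of growth hormone signalling, fell to 5.08 ± 0.533 FPKM in siCircGigyf2 libraries, against 7.59 ± 0.235 FPKM in siNC libraries (adjusted p = 0.000692). Jak2 averaged 9.25 ± 0.252 FPKM in siCircGigyf2 and 10.4 ± 0.259 FPKM in siNC libraries (log2 difference -0.15, adjusted p = 0.0249), a call lost without siCircGigyf2 replicate 1 (0.0574) or 2 (0.0680) and without siNC replicate 1 (0.0804) or 3 (0.0771). Stat3 differed by 0.05 and did not pass. Ptpn11 differed by 0.10 (adjusted p = 0.0536) and passed without siCircGigyf2 replicate 3 (0.0460) and with a filter of 5 FPKM (0.0456).

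More of the interferon-induced effectors lay under the filter than above it. Of 60 genes 24 passed the filter, with 9 higher and 1 lower (median log2 difference 0.14). The shares over all genes tested were 19.5% higher and 18.7% lower. The genes under it included Ifit1, Ifit2, Ifit3 and Rsad2, named after their values were seen. Ifit1, a classic early marker of the response, had 0.0208 to 0.0956 FPKM in the siCircGigyf2 libraries and 0.0917 to 0.175 FPKM in the siNC libraries, which overlapped. Trim21, a ubiquitin ligase and antibody receptor of the cytosol, rose to 6.19 ± 0.420 FPKM in the siCircGigyf2 libraries, against 3.62 ± 0.226 FPKM in the siNC libraries (log2 rise 0.64, limma adjusted p = 0.000164). Ifi27 averaged 23.4 ± 1.31 FPKM in siCircGigyf2 and 16.3 ± 0.862 FPKM in siNC libraries (0.50, adjusted p = 0.000166). Nampt, an enzyme of NAD synthesis, averaged 80.6 ± 1.38 FPKM in siCircGigyf2 and 71.3 ± 1.24 FPKM in siNC libraries (0.17, adjusted p = 0.00171). Parp14, an ADP-ribosyltransferase, had 1.52, 1.47 and 1.38 FPKM in siCircGigyf2 and 0.843, 0.604 and 0.581 FPKM in siNC libraries (0.56, or 1.02 with a pseudocount of 0.1, adjusted p = 0.00196), and was tested by virtue of the siCircGigyf2 libraries. The lower gene was Ifitm2 (log2 difference -0.15, adjusted p = 0.0278), named after its value was seen. Its call was lost without a filter (0.0678), with no mean-variance trend (0.0646), without siCircGigyf2 replicate 1 (0.0666) or 2 (0.0609) and without siNC replicate 1 (0.0689) or 3 (0.0883). Daxx and Zc3hav1 did not pass (-0.15 and 0.14). Daxx did without siCircGigyf2 replicate 2 (0.0364) or siNC replicate 3 (0.0448) and with a block on the replicate number (0.0329). Zc3hav1 did without siCircGigyf2 replicate 2 (0.0259).

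The list around ISG15 conjugation, which includes related family members, held 6 genes, of which 4 passed the filter. Of these 1 was higher and 0 lower by limma, and 2 and 0 at an unadjusted p under 0.05. By adjusted p, 19.5% of all genes tested were higher and 18.7% lower. The gene that passed was Herc3, of the HERC family to which the ISG15 ligases belong (5.79 ± 0.0481 FPKM in siCircGigyf2 and 4.77 ± 0.0976 FPKM in siNC libraries, limma adjusted p = 0.00655). Uba7 and Herc6, the activating enzyme and the mouse ISG15 ligase, named after their values were seen, were under the filter, at or below 0.119 FPKM in every library. Ube2e1 differed by 0.14 (adjusted p = 0.0763) and passed without siNC replicate 3 (0.0438), and Ube2e2 differed by -0.06 (adjusted p = 0.332). Ube2l6, named after its values were seen, averaged 6.71 FPKM in siCircGigyf2 and 6.56 FPKM in siNC libraries and did not pass (0.03, adjusted p = 0.748).

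Part of the class I antigen processing list was higher. Of 17 genes 15 passed the filter, and 9 were higher and 0 lower, or 10 and 0 at an unadjusted p under 0.05 (median log2 difference 0.19). By adjusted p, 19.5% of all genes tested were higher and 18.7% lower. Tapbp, the tapasin that loads peptides onto class I molecules, had 53.7, 53.3 and 56.2 FPKM in the siCircGigyf2 libraries and 33.0, 31.4 and 32.5 FPKM in the siNC libraries, a log2 rise of 0.73 (limma adjusted p = 7.06e-06). The proteasome activator genes Psme1 and Psme2 both rose. Psme1 averaged 65.6 ± 1.24 FPKM in siCircGigyf2 and 51.5 ± 3.07 FPKM in siNC libraries, and Psme2 averaged 49.9 ± 1.95 FPKM in siCircGigyf2 and 37.4 ± 3.35 FPKM in siNC libraries (adjusted p = 0.000400 and 0.000837). Tap2, of the peptide transporter, averaged 13.5 ± 0.486 FPKM in siCircGigyf2 and 10.1 ± 0.673 FPKM in siNC libraries (0.38, adjusted p = 0.000721). B2m, the class I light chain, averaged 189 ± 12.2 FPKM in siCircGigyf2 and 185 ± 4.93 FPKM in siNC libraries and did not pass, with a log2 difference of 0.03 that was -0.01 after quantile normalization. H2-D1, whose reads can be shared with other class I genes, differed by 0.19 (adjusted p = 0.0611). It passed without siCircGigyf2 replicate 2 (0.0310) or siNC replicate 3 (0.0473) and with a block on the replicate number (0.0107). Of other class I genes, named after their values were seen, H2-K1 and H2-T23 were higher (0.19 and 0.61, adjusted p = 0.000977 and 0.00143). H2-Q4 did not pass (0.15, adjusted p = 0.186). The higher genes also include Calr and Pdia3 (0.23 and 0.18), likewise named after their values were seen. Tap1, Psmb8 and Psmb10, also named so, did not pass (0.11, 0.10 and 0.17, limma adjusted p = 0.279, 0.227 and 0.194). Psmb9, named so too, was under the filter, at means of 0.335 FPKM in siCircGigyf2 and 0.408 FPKM in siNC libraries.

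Of 18 inflammatory response genes 2 passed the filter, and 0 changed by limma, also at an unadjusted p under 0.05. Among all genes tested, 19.5% were higher and 18.7% lower by adjusted p. Cxcl1, a neutrophil chemokine, had 4.54, 5.07 and 4.79 FPKM in the siCircGigyf2 libraries and 4.60, 2.45 and 5.11 FPKM in the siNC libraries. Its log2 difference of 0.24 did not pass (limma adjusted p = 0.326) and was -0.01 without siNC replicate 2, the low library. Tnfaip3, an NF-κB feedback gene, differed by 0.14 (adjusted p = 0.238). Ccl5, Cxcl9, Cxcl11, Il1b and Vcam1, named after their values were seen, were listed at 0 in all 6 libraries. Cxcl10 and Il15, under the filter and also named after their values were seen, had groups that did not overlap, in opposite directions. Cxcl10 had 0.424, 0.386 and 0.882 FPKM in the siCircGigyf2 libraries and 0.354, 0.256 and 0.107 FPKM in the siNC libraries. Il15 had 0.597, 0.908 and 0.985 FPKM in siCircGigyf2 and 1.25, 1.10 and 1.14 FPKM in siNC libraries. Neither was tested. Groups did not overlap in the direction of Cxcl10 for 5.76% of the 5710 genes under the filter but above 0 in some library. The share in the direction of Il15 was not counted.

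**Figure D3:**
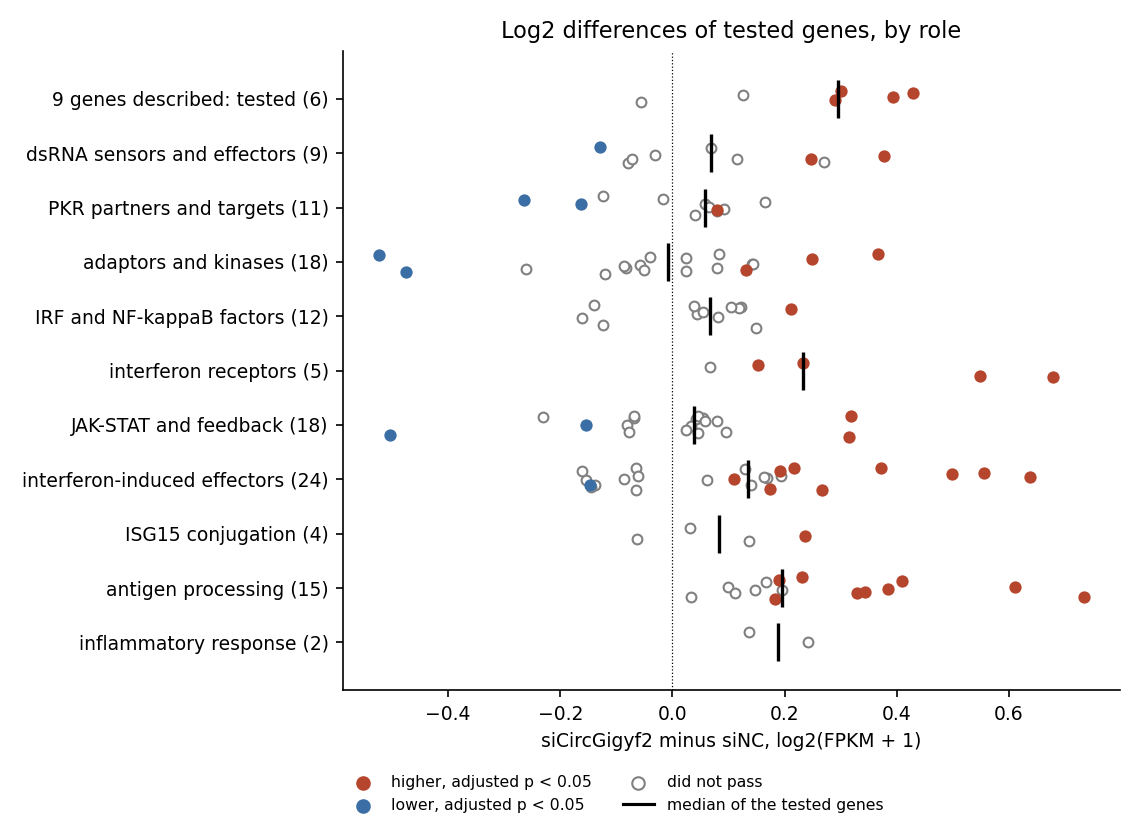
Log2 difference, siCircGigyf2 minus siNC, of each tested gene (points, horizontal axis) by role, with the number tested in brackets and the median as a vertical line. Filled points passed an adjusted p of 0.05 in limma. The tested receptor and antigen-processing genes lie to the right of 0 (B2m at 0.03, or -0.01 after quantile normalization), whereas the adaptors and the genes around PKR lie on both sides.

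Genes with and without an ISRE core in the promoter were higher in similar shares. Over the tested genes with a RefSeq promoter, 281 held the core, of which 20.3% were higher and 17.8% lower, and 8421 did not, of which 19.6% were higher and 18.8% lower. Within the lists by role, 5 of 17 genes with the core and 21 of 81 without it were higher, and 2 of 17 with it and 4 of 81 without it were lower, with median log2 differences of 0.080 and 0.079. Of the 9 genes described, the 4 that rose include Eif2ak2 with the core and Irf9 and Lgals3bp without it, whereas Stat2 and Ddx58 held it and did not pass. These counts are a description, and the difference between genes with and without the core was not tested.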

How the data were processed

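RNA-seq of 3 siCircGigyf2 and 3 siNC libraries of CAD cells was compared. Ribosomal RNA was removed and paired reads were sequenced, per the labels' protocols. The authors deposited 1 table of FPKM with 1 row per gene symbol, and each of its columns was matched to a sample by title. The genome build was mm9, per the submitters' processing notes. No aligner, quantifier, annotation or strand setting was given in the sources used here. Absolute depth was not given, so precision rests on the spread of 3 libraries. No label tells whether the replicates are separate cultures, and p-values therefore measure a spread among samples that may be technical. The largest share of identical values in a pair of libraries was 0.0068%, so none was counted as a repeat.

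Genes averaging 1 FPKM or more were tested with limma 3.58.1 (R 4.3.3) on log2(FPKM + 1). The tests were two-sided, used moderated variances that follow the mean, and were adjusted by Benjamini-Hochberg over all genes tested. Log2 differences are siCircGigyf2 minus siNC on this scale, which understates changes of low genes. Whole-fragment ratios were the smallest whole numbers matching FPKM times relative depth. Promoters came from RefSeq (GRCm38.p6, not the build of the files) and were searched with Python 3.11.15. Exon overlaps came from GENCODE M21.

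The 9 genes and the lists by role were chosen with earlier results of these data known. From each list the text names up to 4 genes past the threshold by smallest p and up to 2 not past it by highest FPKM. Some genes that the rule names are not reported here. Any other gene is marked in the text as chosen with its values known. Alternatives changed the pseudocount to 0.1, dropped the filter or raised it to 5 FPKM, rescaled libraries by median ratios or by quantiles, blocked on the replicate number, changed the variance model, or left out a library. A fit without a filter and with a pseudocount of 0.1 was added after seeing the data.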

Additional observations from a re-analysis of the deposited data

How the results depend on the processing

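With a filter of 5 FPKM, 2 of the 9 genes passed as higher, because 3 were then tested. The other planned and added alternatives gave 4, and leaving out a library gave 3 or 4 higher and 0 lower. Over all genes, leaving out a library gave 1773 to 2050 higher and 1684 to 1873 lower. Of the other genes of the pathway, 26 to 32 were higher and 5 to 10 lower when a library was left out, with 5 lower without siNC replicate 1 or siNC replicate 3. No label tells whether replicate numbers pair the samples. Deviations from the group means correlated at 0.163, -0.0208 and 0.00253 for the same numbers, and at -0.119 to 0.131 for different numbers. With 3 libraries per group these correlations cannot decide it. With the replicate block, 4 of the 9 genes were higher, 30 other pathway genes were higher and 7 lower, and 2047 higher and 1926 lower of all genes; not every library correlated best with its own number.

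Directions turned for 4 genes that did not pass: Azi2 (-0.0099 without siCircGigyf2 replicate 3), Stau1 (0.011 without siCircGigyf2 replicate 2), B2m (-0.011 after quantile normalization) and Cxcl1 (-0.013 without siNC replicate 2). Leaving out each library in turn gave -0.0099 to 0.042 for Azi2, -0.058 to 0.011 for Stau1 and -0.013 to 0.40 for Cxcl1. The cause was not tested. With a pseudocount of 0.1 and no filter, Isg15 and Tlr3, both low, had log2 differences of 1.29 and 0.39 (limma adjusted p = 0.114 and 0.167), larger because the pseudocount is smaller. Depth limits both genes, and a 0 for Ifih1 sets no bound.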
